A study of Mus musculus with 6 samples.

Results

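Samd3, Dapk2 and Phactr3 are 3 of the 57180 genes measured in NK cells of fibrotic mouse liver, sorted into CD36+ NK and CD36- NK. They were chosen by name, with the difference between these fractions already known, and each symbol matched 1 gene of the deposited table. Their levels in the fractions, alone and relative to Klrb1c, which encodes the NK1.1 antigen of the sorting gate, are therefore a description without a test. All 3 passed the filter on low counts that left 14761 genes for testing.

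Male C57BL/6J mice of 6 to 8 weeks had received CCl4 in olive oil (a 20% solution at 2.5 ml/kg, given 2 times weekly over 4 weeks), and livers were taken 48 h after the last dose. Both fractions came from such fibrotic livers, and no library of untreated mice was analysed here. NK cells were gated as CD3- NK1.1+ and separated by surface CD36, with 3 libraries of CD36+ NK and 3 of CD36- NK. Neither the sample labels nor the methods say whether a library came from 1 animal or from a pool, so the spread between libraries may be partly technical.

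SAMD3 is a protein with a sterile alpha motif, a small domain through which proteins bind each other. Its cellular role is little described, and its transcript is known mainly from NK cells and cytotoxic T cells. DAPK2 belongs to the death-associated protein kinases, serine/threonine kinases that calmodulin switches on when calcium rises and that take part in cell death and autophagy. PHACTR3, also called scapinin, belongs to the phosphatase and actin regulators, which bind actin through RPEL motifs and bind the catalytic subunit of protein phosphatase 1. The 3 proteins belong to separate families.

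The genes lie on different chromosomes and are protein coding. The deposited table does not name the build of its coordinates. In it, Samd3 (ENSMUSG00000051354) spans 26105605 to 26148070 on the plus strand of chromosome 10. Dapk2 (ENSMUSG00000032380) spans 66065505 to 66179524 on the plus strand of chromosome 9, and Phactr3 (ENSMUSG00000027525) spans 177760768 to 177980285 on the plus strand of chromosome 2. Their spans of 42466, 114020 and 219518 bases equal those in the GENCODE annotation of GRCm38, but the starts are shifted, so no coordinate of the table was used with that build. No other gene of the table overlapped any of them.

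The promoters of Samd3 and Dapk2 are shown because the transcripts of these genes were low in the same libraries. They are the 250 bases before the RefSeq start on GRCm38.p6, plus strand, at chr10:26229457-26229706 for Samd3 and chr9:66157976-66158225 for Dapk2. A window was found for 2 of the 3 genes, all but Phactr3. Capitals mark matches on either strand to AGGTGT (the core bound by T-box factors), TGTGGT (Runx factors), AGGAAG (ETS factors) or TATAAA (the TATA box), none of which overlapped another.
Samd3: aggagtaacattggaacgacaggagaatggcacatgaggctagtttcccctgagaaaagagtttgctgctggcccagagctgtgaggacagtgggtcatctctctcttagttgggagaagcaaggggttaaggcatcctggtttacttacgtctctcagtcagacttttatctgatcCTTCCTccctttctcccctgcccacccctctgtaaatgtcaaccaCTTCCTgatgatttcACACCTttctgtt
Dapk2: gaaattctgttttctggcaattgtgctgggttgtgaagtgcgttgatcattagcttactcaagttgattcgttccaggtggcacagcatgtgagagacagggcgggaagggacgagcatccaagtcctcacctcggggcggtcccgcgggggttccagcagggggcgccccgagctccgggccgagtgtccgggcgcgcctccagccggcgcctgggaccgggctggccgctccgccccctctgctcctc

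The Samd3 window held 3 matches, all reading in the opposite direction to the gene. The T-box core began 13 bases before the start, and the ETS core began 28 and 73 bases before it. Of all 32536 distinct promoter windows of this length, 11.9% held the T-box core, 14% the Runx core, 29.6% the ETS core and 12.3% the TATA box. The Dapk2 window held none of these letters. The windows also differed in base composition. Samd3 had 48.8% G and C with 2 CpG pairs, and Dapk2 had 65.2% with 20 CpG pairs, against medians of 52.4% and 6 over all windows.

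Cd36, the gene of the sorted surface marker, was checked first. It was at 109.7 to 263 CPM in the libraries titled CD36+ NK and at 14.3 to 31.7 CPM in those titled CD36- NK, where CPM is the usual count unit scaled to library size, here adjusted by TMM factors. The library names write the sign of CD36 differently from the titles, and the titles were followed. CD36+ NK replicate 1 stood apart in Cd3e, a defining T cell gene, at 27.0 CPM against 0.0831 to 1.06 CPM in the other 5 libraries. It also stood apart from the other CD36+ NK libraries in neutrophil genes, whose summed level was 3637 CPM against 663 and 793.7 CPM, so values without it are also given. Total counts ran from 10292480 to 13787189 per library. Of the tested genes, 440 were called higher and 440 lower in CD36+ NK by edgeR's quasi-likelihood test (adjusted p below 0.05 and fold change above 2), that is 2.98% in each direction. With 1 library left out the split stayed near even without CD36+ NK replicate 1 (568 higher and 554 lower) and moved without any of the others, to 94 higher and 323 lower without CD36- NK replicate 1, 120 and 298 without CD36+ NK replicate 2, 132 and 319 without CD36+ NK replicate 3, 143 and 288 without CD36- NK replicate 3, and 708 and 452 without CD36- NK replicate 2.

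Samd3 was the highest of the 3 genes. It had 321, 373 and 341 counts in CD36+ NK replicates 1 to 3 and 1821, 1691 and 2010 counts in CD36- NK replicates 1 to 3. Normalized, it was at 28.6, 27.4 and 28.4 CPM in CD36+ NK and at 140.0, 149.5 and 196.3 CPM in CD36- NK. The groups did not overlap, and the gap between the highest CD36+ NK and the lowest CD36- NK library was 111.4 CPM. The means were 28.1 ± 0.597 (SD, n = 3) and 161.9 ± 30.1 CPM (SD, n = 3), giving a log2 fold change of -2.53 (standard error, SE, 0.144), or 5.76-fold lower in CD36+ NK. The 3 CD36+ NK libraries lay closer together than counting alone would give, with a coefficient of variation of 2.12% against 5.38% for counts of this size. In sorted bulk samples, fewer cells that express a gene and less of its RNA per cell cannot be told apart.

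Dapk2 had 88, 95 and 75 counts in CD36+ NK and 463, 399 and 407 in CD36- NK. This gave 7.83, 6.99 and 6.24 CPM against 35.6, 35.3 and 39.8 CPM. Again every CD36+ NK library was below every CD36- NK library, and the CD36- NK replicates differed less than for the other genes, with a coefficient of variation of 6.77%. The means were 7.02 ± 0.799 and 36.9 ± 2.495 CPM (SD, n = 3 each), giving -2.39 as log2 fold change (SE 0.136), or 5.25-fold lower in CD36+ NK.

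Phactr3 was the lowest of the 3. Its counts were 48, 55 and 56 in CD36+ NK and 348, 300 and 347 in CD36- NK. These corresponded to 4.27, 4.05 and 4.66 CPM in CD36+ NK and 26.8, 26.5 and 33.9 CPM in CD36- NK. The groups did not overlap here either. With means of 4.33 ± 0.308 and 29.1 ± 4.19 CPM (SD, n = 3 each), the log2 fold change was -2.75 (SE 0.159), a 6.705-fold lower level in CD36+ NK. At about 50 counts per CD36+ NK library, counting alone gives a coefficient of variation of 13.7%, and the libraries showed 7.12%.

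**Figure D1:**
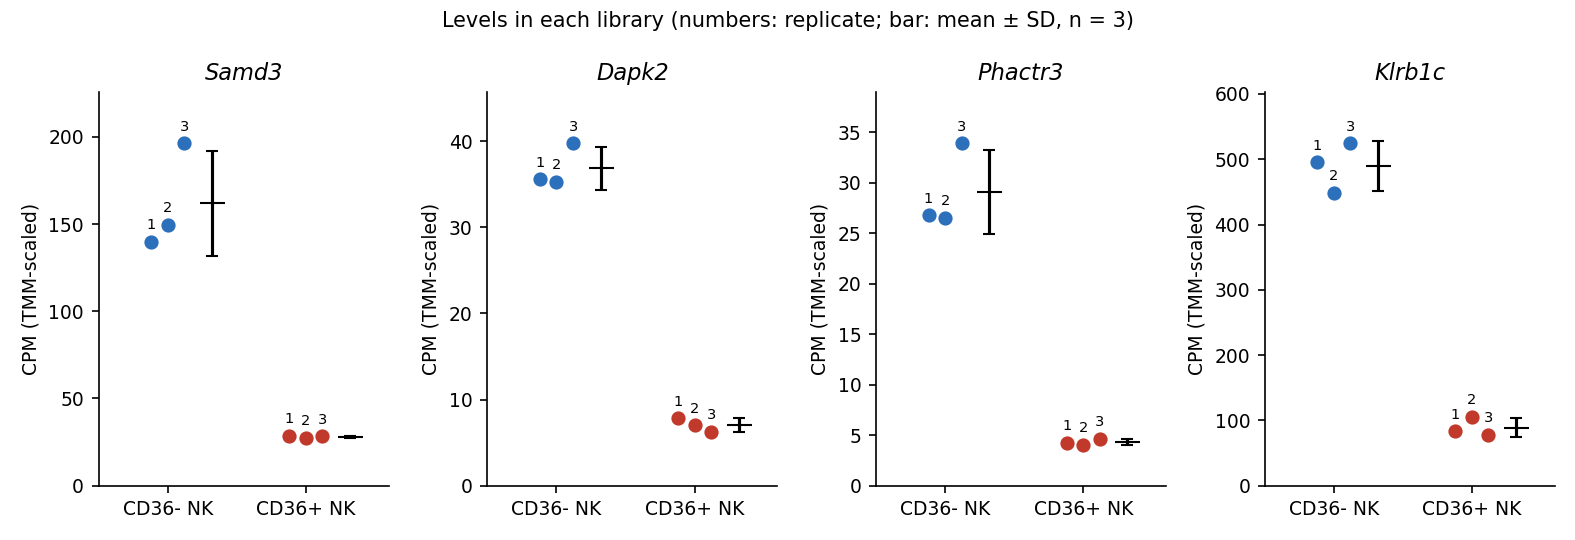
Level of Samd3, Dapk2, Phactr3 and Klrb1c in each library, in CPM on linear axes that start at 0. Points are libraries numbered by replicate, and bars are the mean and SD of 3 libraries. In each panel the 3 CD36+ NK libraries lie below the 3 CD36- NK libraries, as for Samd3 with means of 28.1 and 161.9 CPM.

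All 3 genes thus had every CD36+ NK library below every CD36- NK library, as did 15.7% of all tested genes, and all 3 were among the 2.98% of tested genes called lower. These counts restate how the genes were chosen. Among the tested genes, 0.135% had a lower log2 fold change than Phactr3, 0.379% a lower one than Samd3 and 0.603% a lower one than Dapk2. In mean CPM they were further apart, with 17.9% of tested genes above Samd3, 52.7% above Dapk2 and 58.7% above Phactr3. The median log2 fold change of all tested genes was 0.01, and that of the 440 genes called lower was -1.87.

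Per gene length the order was the same in every library. In the authors' FPKM (fragment counts divided by gene length and library total), Samd3 was at 25.9 to 35.7 in CD36- NK libraries, Dapk2 at 7.56 to 8.31 and Phactr3 at 3.12 to 3.89. CD36+ NK libraries held 4.95 to 5.29 FPKM of Samd3, 1.25 to 1.67 FPKM of Dapk2 and 0.461 to 0.514 FPKM of Phactr3. In both fractions the ranges of neighbouring genes in this order did not overlap.

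The replicate 1 libraries of both fractions carry names of another form than the rest, and whether this marks a separate run is not stated. Between the replicate 1 libraries alone, the log2 difference was -2.29 for Samd3, -2.16 for Dapk2 and -2.60 for Phactr3. Between the means of replicates 2 and 3 it was -2.61, -2.47 and -2.74. The differences therefore had the same sign and a similar size in both sets of libraries. Without CD36+ NK replicate 1, the library with high Cd3e, the log2 fold changes over the remaining 5 libraries were -2.55, -2.49 and -2.75.

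Klrb1c gives a second scale, because a ratio of counts within a library needs no scaling between libraries. It was at 83.1, 105.7 and 77.9 CPM in CD36+ NK and at 495, 448.5 and 524 CPM in CD36- NK, and its log2 fold change was -2.46 (SE 0.144). Its own fall lay within the range of the other 11 NK marker genes examined, from -2.58 for Eomes to -2.20 for Il2rb. All 12 of these genes were called lower, against 2.98% of all tested genes, with edgeR adjusted p-values up to 0.00135. Their summed level was 948 to 1174 CPM in CD36+ NK and 4937 to 6435 CPM in CD36- NK. Samd3 and Dapk2 had log2 fold changes inside the range of the 12 genes, and that of Phactr3 lay below it.

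Samd3 had 34.4, 26.0 and 36.4 counts for every 100 Klrb1c counts in CD36+ NK replicates 1 to 3. In CD36- NK it had 28.3, 33.3 and 37.4. The groups overlapped over nearly their whole range, and the means of 32.2 ± 5.53 and 33.0 ± 4.59 (SD, n = 3 each) differed by less than either SD. On the log2 scale the ratio differed by -0.04 between the fractions, against -2.53 for the level.

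Dapk2 had 9.42, 6.61 and 8.004 counts per 100 Klrb1c counts in CD36+ NK and 7.19, 7.87 and 7.58 in CD36- NK. All CD36- NK values lay inside the range of the CD36+ NK values. The means were 8.01 ± 1.41 and 7.55 ± 0.340 (SD, n = 3 each), a log2 difference of 0.07.

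Phactr3 had 5.14, 3.83 and 5.98 counts per 100 Klrb1c counts in CD36+ NK and 5.40, 5.92 and 6.46 in CD36- NK. The groups overlapped here too, with CD36+ NK replicate 3 above 2 of the CD36- NK libraries. The means were 4.98 ± 1.08 and 5.93 ± 0.530 (SD, n = 3 each), and the log2 difference of -0.27 was the largest of the 3 genes. Without CD36+ NK replicate 2 it was -0.09, and without CD36+ NK replicate 3 it was -0.42, so single libraries moved it by more than 1.5 times. The smaller differences turned sign when 1 library was left out, to 0.11 for Samd3 without CD36+ NK replicate 2 (0.055 without CD36- NK replicate 3) and to -0.052 for Dapk2 without CD36+ NK replicate 1. Without the latter library the difference was -0.094 for Samd3 and -0.31 for Phactr3.

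**Figure D2:**
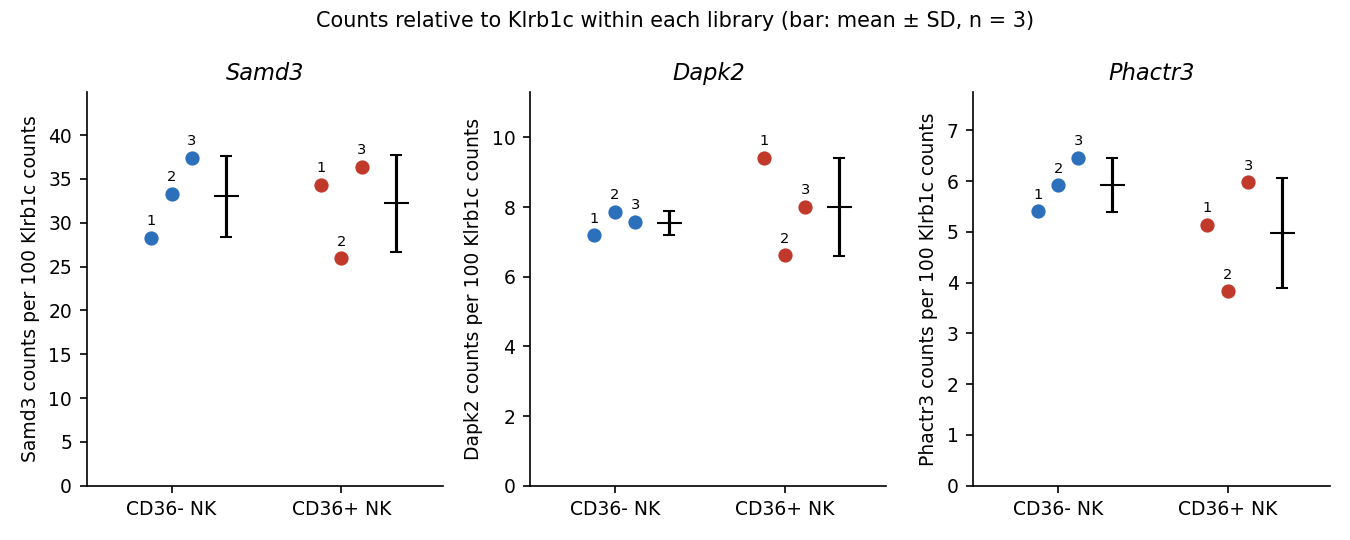
Counts of Samd3, Dapk2 and Phactr3 per 100 Klrb1c counts in the same library, on linear axes that start at 0. Points are libraries numbered by replicate, and bars are the mean and SD of 3 libraries. CD36- NK and CD36+ NK libraries overlap in each panel, for Samd3 at 28.3 to 37.4 and 26.0 to 36.4.

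With the summed counts of the other 11 NK marker genes in place of Klrb1c, the log2 differences were -0.17 for Samd3, -0.06 for Dapk2 and -0.40 for Phactr3. For Phactr3 the groups then did not overlap, with 3.79 to 5.35 counts per 1000 in CD36+ NK libraries against 5.45 to 5.91 in those of CD36- NK. For Samd3 and Dapk2 they still overlapped. The genes were also set against each other. The ratio of Samd3 to Dapk2 counts was 3.65 to 4.55 in CD36+ NK libraries and overlapped with the 3.93 to 4.94 of CD36- NK. Samd3 over Phactr3 was 6.09 to 6.78 and 5.23 to 5.79, and Dapk2 over Phactr3 was 1.34 to 1.83 and 1.17 to 1.33, neither of which overlapped, the last by a narrow margin (1.339 against 1.330). Phactr3 thus had the lowest CD36+ NK share relative to the others in these libraries, by a factor of 1.17 against Samd3 and 1.27 against Dapk2.

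**Figure D3:**
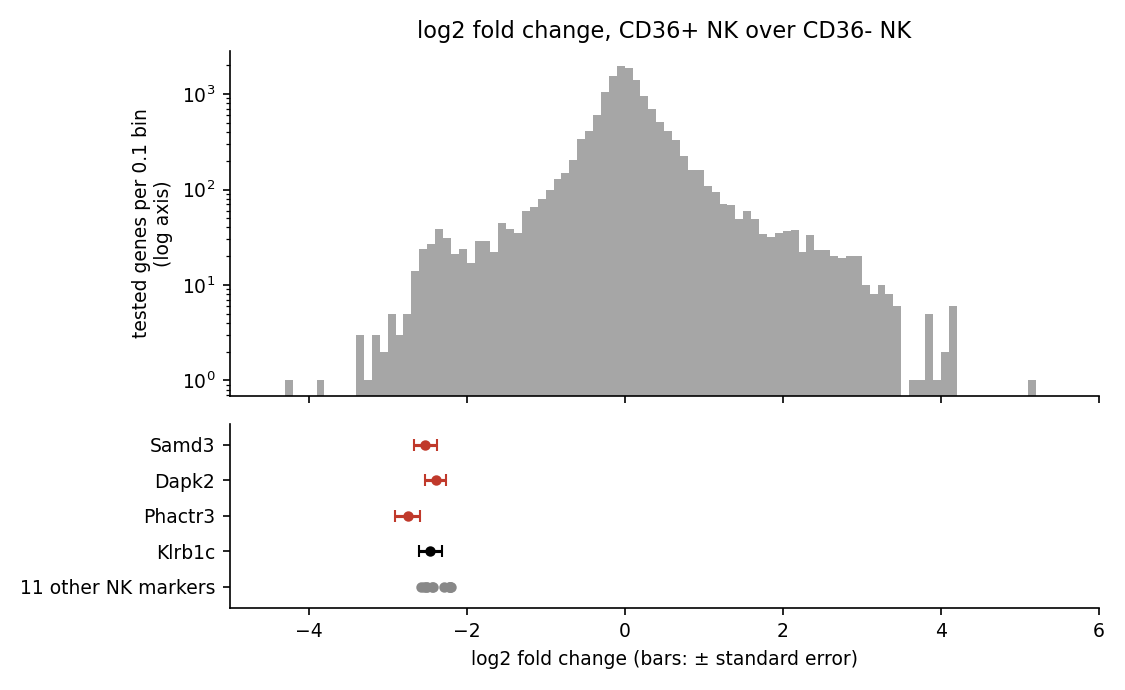
The upper panel counts tested genes in bins of 0.1 by log2 fold change of CD36+ NK over CD36- NK, with a log axis for the counts. The lower panel marks the estimates for Samd3, Dapk2, Phactr3 and Klrb1c with their standard errors, and the 11 other NK markers as points, all of which lie between -2.75 and -2.20.

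Of the 440 genes called lower, 129 had a log2 fold change within 0.25 of the estimate for Klrb1c. Neighbouring intervals of this width were not counted. Over the 6 libraries, the genes most like each of the 3 were sought by the root mean square difference of log2 CPM profiles after centring each gene on its own mean. This likeness includes the difference between the fractions and is a description. For Samd3 the closest genes were Klra7, Eomes, Styk1, Il18rap and Phactr3, at 0.0820 to 0.115 on the log2 scale. For Dapk2 they were Fbxl2, Tbx21, Wscd2, Klra1 and Trdv4, at 0.0565 to 0.0974. For Phactr3 they were Eomes, a gene without a symbol (ENSMUSG00000121359), Klra4, Samd3 and Cdc20b, at 0.0813 to 0.119. Klra1, Klra4 and Klra7 are near copies within the Ly49 receptor family, whose fragments may have been divided between them in counting, so their profiles are uncertain. Samd3 and Phactr3 were thus among the 5 closest genes of each other. Dapk2 ranked 18 in likeness to Samd3 and 27 in likeness to Phactr3. In likeness to Dapk2, Samd3 ranked 26 and Phactr3 ranked 76, behind Klrb1c. Klrb1c itself ranked 43, 31 and 33 in likeness to Samd3, Dapk2 and Phactr3.

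The other genes of the same families did not move with them past the threshold. Of 3 other DAPK genes, 2 other tested PHACTR genes and 7 other tested genes named for the SAM domain, 0 were called by edgeR, against 5.96% of all tested genes called in either direction. At an unadjusted p below 0.05 there were 1 of 3, 2 of 2 and 1 of 7 genes, against 26.3% of all tested genes. DESeq2 called only Samd4 in these families, against 7.74% of all tested genes. Counts of 0 in lists this small do not show that the genes did not differ.

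In the DAPK family, Dapk3, the ubiquitous relative of Dapk2, was at 46.8 ± 0.733 CPM in CD36+ NK and 50.2 ± 1.86 CPM in CD36- NK (SD, n = 3 each). Its estimate on the log2 scale was -0.10 (SE 0.0837, adjusted p = 0.503 by edgeR). Dapk1, a longer kinase with ankyrin repeats, was at 7.14 ± 1.09 and 4.29 ± 1.69 CPM, or 0.73 on the log2 scale (SE 0.309, adjusted p = 0.188 by edgeR). With 1 library left out it ran from 0.473 without CD36- NK replicate 3 to 1.046 without CD36- NK replicate 2. Stk17b, which encodes the lymphocyte kinase DRAK2, had the highest level per length, with means of 150 and 145 FPKM and a log2 fold change of 0.09 (SE 0.201). In CD36- NK, Dapk2 was close to Dapk3 per length, at 7.84 ± 0.413 and 8.75 ± 0.223 FPKM. In CD36+ NK the same genes were at 1.46 ± 0.206 and 7.93 ± 0.101 FPKM.

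In the PHACTR family, Phactr4 was at 35.9 ± 1.09 CPM in CD36+ NK and 45.9 ± 3.76 CPM in CD36- NK, which is -0.36 as log2 fold change (SE 0.0998, adjusted p = 0.0658 by edgeR). Phactr2 was at 33.7 ± 7.34 and 18.9 ± 4.92 CPM, or 0.84 on the log2 scale (SE 0.232, adjusted p = 0.0645 by edgeR), and it was called only without CD36- NK replicate 2, at 1.07, among the 12 alternatives. Phactr1 had 12 counts over the 6 libraries and was not tested. Per length, Phactr3 stood above Phactr2 in CD36- NK, with means of 3.39 and 1.51 FPKM, and below it in CD36+ NK, with 0.492 and 2.61 FPKM.

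Among the genes named for the SAM domain, Samd9l, an interferon-induced gene, was the most abundant per length, at 63.8 FPKM in CD36+ NK and 74.0 FPKM in CD36- NK, with -0.17 as log2 fold change (SE 0.133, adjusted p = 0.473 by edgeR). In CD36- NK, Samd3 was next with 29.9 FPKM, above Samd1 at 15.8 FPKM, and in CD36+ NK it was below Samd1, at 5.07 and 13.0 FPKM. Samd5 and Samd7 had no counts in any library. Log2 fold changes of the 7 other tested genes of this list had a median of -0.03 and ran from -0.36 for Samd10 to 2.53 for Samd4, whose libraries were few in counts and spread widely (SE 0.747, adjusted p = 0.0755 by edgeR).

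**Figure D4:**
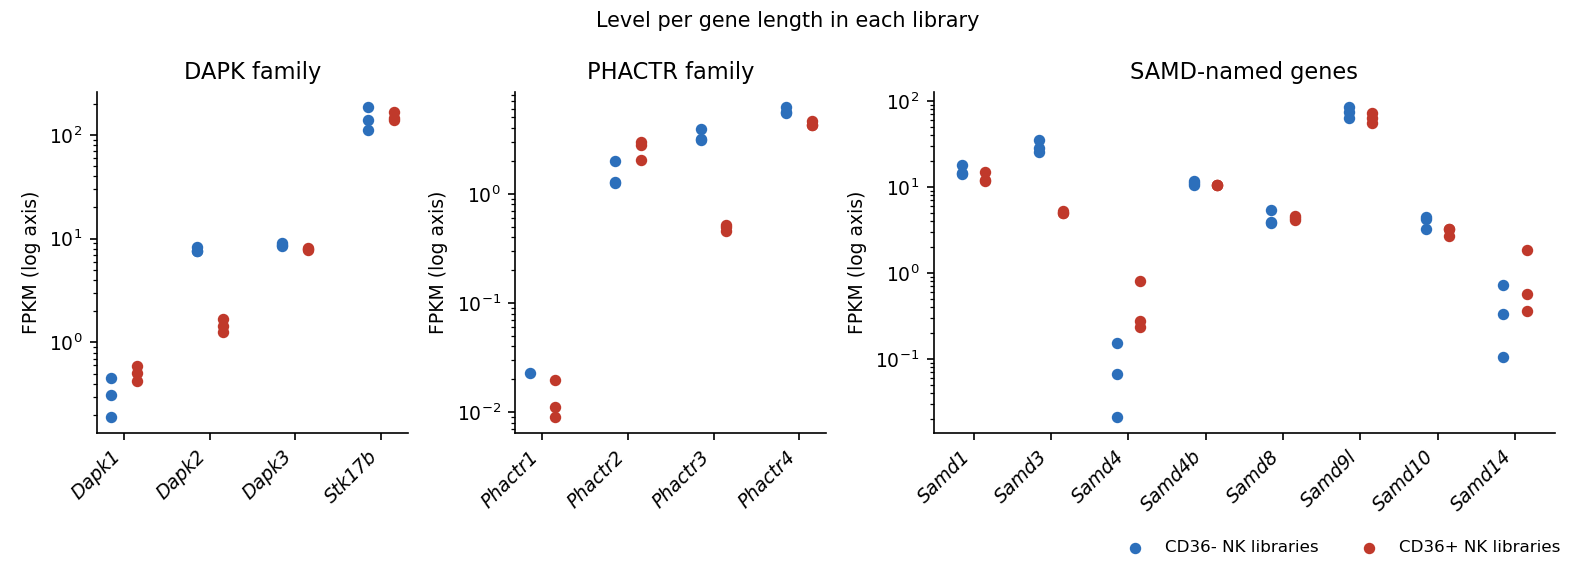
Level per gene length of the DAPK family, the PHACTR family and the tested genes named for the SAM domain, in FPKM on log axes, with 1 point per library and libraries at 0 left out. Dapk2, Phactr3 and Samd3 show CD36+ NK libraries well below CD36- NK libraries, as for Dapk2 with means of 1.46 and 7.84 FPKM, while Dapk3 has means of 7.93 and 8.75 FPKM.

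Genes around DAPK2 and PHACTR3 were read from lists of calmodulins and calmodulin-dependent kinases, autophagy genes, catalytic subunits of protein phosphatase 1, and RPEL proteins with SRF and the cytoplasmic actins. With the family lists, these held 52 tested genes other than the 3, of which 2 were called (3.85%, against 5.96% of all tested genes). Camk2b, which encodes a subunit of calmodulin-dependent kinase II, was lower. It had 104, 110 and 93 counts in CD36+ NK and 468, 458 and 523 in CD36- NK. The groups did not overlap, and means of 8.36 ± 0.797 and 42.5 ± 7.75 CPM (SD, n = 3 each) gave -2.35 as log2 fold change (SE 0.169, adjusted p = 0.000652 by edgeR). Camk2a, another subunit gene of the same kinase, was higher, at 1.48 on the log2 scale (SE 0.333, adjusted p = 0.0362 by edgeR). It rested on 76 counts over the 6 libraries. It was called under 3 alternatives, not called under 8 and left untested by the filter of 10 counts in every library.

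Calm2, which encodes calmodulin, the activator of DAPK2, was at 209 ± 15.02 CPM in CD36+ NK and 299 ± 20.6 CPM in CD36- NK (SD, n = 3 each). Its log2 fold change of -0.51 passed the adjusted p threshold but not that of fold change (SE 0.0988, adjusted p = 0.0224 by edgeR). It missed the former with the replicate block (edgeR adjusted p = 0.0509) and with a library left out, namely CD36+ NK replicate 2 (0.0600) or 3 (0.0933) and CD36- NK replicate 1 (0.0693) or 3 (0.05015), and over all alternatives the adjusted p ran from 0.000126 to 0.0933. Calm3, which encodes the same protein, had a log2 fold change of 0.06. Of the 18 autophagy genes 0 were called by edgeR or DESeq2, against 5.96% and 7.74% of all tested genes, and 5 had an unadjusted p below 0.05 in edgeR, against 26.3%. Their log2 fold changes had a median of -0.07 and a range from -0.38 for Rb1cc1 to 0.33 for Gabarapl1. The most abundant of them per length, Gabarap, Sqstm1 and Gabarapl2, had log2 fold changes of 0.10, -0.16 and -0.24. With 1 library left out, Gabarap ran from 0.042 (without CD36- NK replicate 3) to 0.155 (without CD36+ NK replicate 2). Sqstm1 ran from -0.371 (without CD36- NK replicate 2) to -0.039 (without CD36- NK replicate 3), and Gabarapl2 from -0.28 to -0.211.

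The catalytic subunits of protein phosphatase 1, to which PHACTR proteins bind, had log2 fold changes of -0.16 for Ppp1ca, 0.24 for Ppp1cb and -0.47 for Ppp1cc. Of these 3 genes 0 were called by edgeR or DESeq2, against 5.96% and 7.74% of all tested genes. At an unadjusted edgeR p below 0.05 there were also 0 of 3, against 26.3%. With 1 library left out, Ppp1ca ran from -0.294 (without CD36+ NK replicate 1) to -0.069 (without CD36+ NK replicate 2) and Ppp1cc from -0.68 (without CD36+ NK replicate 3) to -0.258 (without CD36- NK replicate 1). Of the 7 tested genes of RPEL proteins, SRF and actins, 0 were called by edgeR and 4 had an unadjusted p below 0.05, against 5.96% and 26.3% of all tested genes. DESeq2 called Arhgap32, against 7.74% of all, and the median log2 fold change in edgeR was -0.13. Among the most abundant, Actb had a log2 fold change of -0.08, Actg1 one of -0.60 (SE 0.201, adjusted p = 0.105 by edgeR) and Srf one of -0.13. With 1 library left out, Actg1 ran from -0.478 (without CD36+ NK replicate 2) to -0.892 (without CD36+ NK replicate 1, edgeR adjusted p = 0.00686). Its adjusted p was also below the threshold by DESeq2 (0.0296) and by edgeR with the form of the library name as a block (0.0344), and under no other alternative. Over all 7 lists DESeq2 called 3 genes of 52, Arhgap32, Samd4 and Camk2b, against 7.74% of all tested genes.

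The tested genes nearest to each of the 3 on the chromosome were chosen by position alone, after the values of the 3 had been seen. On chromosome 10, L3mbtl3 lies 2296 bases beyond Samd3, and its log2 fold change was -0.05 (SE 0.0943, adjusted p = 0.810 by edgeR), and Gm4739 on the other side had one of -0.29. Dapk2 lies between Ciao2a and Herc1 on chromosome 9, which had log2 fold changes of 0.10 and 0.05. Phactr3 lies between Zfp931 and Ppp1r3d on chromosome 2, with 0.30 and 0.36. None of these 6 genes was called, against 5.96% of all tested genes, and their edgeR adjusted p-values ran from 0.215 to 0.810. The distances to these genes ran from 2296 to 121286 bases.

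Marker genes of other cell types also differed between the fractions, and their part in the levels of Samd3, Dapk2 and Phactr3 was not tested. Among genes of macrophages and Kupffer cells, 10 of 10 tested had a positive log2 fold change. By edgeR 4 were called higher in CD36+ NK, against 2.98% of all tested genes, and by DESeq2 8, against 652 of 14761. The summed level of this list was 6736 to 9368 CPM against 2472 to 5812 CPM in CD36- NK. The most counted of them, Lyz2 and Csf1r, had log2 fold changes of 0.10 and 1.89, and Clec4f had 17, 624 and 0 counts in CD36+ NK replicates 1 to 3 and 0 in all CD36- NK libraries, so nearly all of its counts came from 1 library. In the erythroid list 8 of 8 genes had a positive log2 fold change. Of these, 5 were called higher by edgeR, against 2.98% of all tested genes, and 6 by DESeq2, against 652 of 14761. Their sums were 351 to 794 CPM and 76.9 to 170.9 CPM, led by Hbb-bs and Hba-a1, whose reads can be shared with similar globin genes. In the B cell list 8 of 8 genes had a positive log2 fold change, and 7 had an unadjusted p below 0.05 in edgeR, against 26.3% of all tested genes. Of them 0 were called by edgeR or DESeq2, against 5.96% and 7.74%. Their sums were 5054 to 5692 CPM and 3480 to 3966 CPM, led by Cd79a.

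Samd3 is also known from T cells and Dapk2 from granulocytes, so the sums of these lists are given for each library. The T cell list summed to 517, 82.6 and 89.4 CPM in CD36+ NK replicates 1 to 3 and to 285.9, 264.8 and 337 CPM in CD36- NK. CD36+ NK replicate 1 alone was above the CD36- NK libraries, and the other CD36+ NK libraries were below all of them. Of the 12 tested genes 2 were called higher (Cd4 and Cd8a) and 2 lower (Cd247 and Trbc1, the most counted), against 2.98% of all tested genes in each direction, with a median log2 fold change of 1.64. Without CD36+ NK replicate 1 the median was -1.89, with 2 called higher and 7 lower, against 3.73% and 3.64% of all genes tested in those 5 libraries. Cd3e, at 27.0 CPM in that library, had means of 9.07 ± 15.5 CPM in CD36+ NK and 0.852 ± 0.224 CPM in CD36- NK (SD, n = 3 each). Over all 6 libraries the log2 fold changes were -2.064 for Cd247 and -2.002 for Trbc1, but 2.336 for Cd4 and 3.168 for Cd8a. The list thus did not move as a whole. Which cells the transcripts of Cd247 and Trbc1 came from was not tested, so its sums and medians do not measure T cell number.

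The neutrophil list summed to 3637, 663 and 793.7 CPM in CD36+ NK and to 3006, 1738 and 1233 CPM in CD36- NK. Here too CD36+ NK replicate 1 was the highest library and the other CD36+ NK libraries were the lowest. Of the 8 genes 0 were called by edgeR, 1 had an unadjusted p below 0.05 and 1 was called by DESeq2 (Csf3r), where the shares of all tested genes were 5.96%, 26.3% and 7.74%, with a median log2 fold change of -0.30. The most counted, S100a9, was at 1121, 165.4 and 205 CPM in CD36+ NK and at 1024, 508 and 377 CPM in CD36- NK, and Ltf was next. Without CD36+ NK replicate 1 the median was -1.74 and 4 genes were called lower, against 3.64% of all genes tested. The log2 fold change of Dapk2 without that library was -2.49, against -2.39 with it.

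Sums of the endothelial, hepatocyte and stellate lists were also higher in CD36+ NK without overlap. Of single tested genes, 32.8% had no overlap in either direction. The endothelial list summed to 199.5 to 280.3 CPM and 146 to 191 CPM, led by Fcgr2b and Stab2. Of its 3 tested genes 0 were called by edgeR, 1 had an unadjusted p below 0.05 and DESeq2 called Stab2, against the same 5.96%, 26.3% and 7.74%. Fcgr2b, most of that sum, overlapped between the fractions, at 166 to 218 and 143 to 173 CPM. The hepatocyte list summed to 1.75 to 10.52 CPM and 0.0884 to 0.846 CPM, with no gene tested. It was led by Alb, with 154 counts over the 6 libraries, 106 of them in CD36+ NK replicate 2. The stellate list summed to 6.77 to 8.46 CPM and 2.44 to 5.61 CPM, with Lrat at 0 in all libraries. Of its 2 tested genes 1, Pdgfrb, was called higher, against 2.98% of all, on 115 counts over the 6 libraries.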

How the data were processed

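The series holds RNA-seq libraries of CD36+ NK (3) and CD36- NK (3), grouped by sample title. The authors filtered reads with Seqtk, mapped them with HISAT2 2.0.4, used StringTie to obtain counts, and deposited raw counts per gene beside FPKM values. In the deposited table, FPKM was the count divided by length and library total in 100% of 7439 genes with high counts (tolerance 1%). The submitters' processing notes name the rat assembly mRatBN 7.2, but the gene identifiers are those of mouse. Columns were matched to samples by the library names in the sample descriptions. The names of 2 CD36- NK columns resemble the titles of other CD36- NK samples, so replicate numbers within that group, and the replicate block, rest on this match, while the groups do not. The lines of 2 genes were broken and were rejoined.

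Counts were analysed with edgeR 4.0.16 in R 4.3.3 and with Python 3.11.15. Genes were kept by filterByExpr with a minimum count of 10 and scaled by TMM, and groups were compared by the quasi-likelihood test with no blocking factor and Benjamini-Hochberg adjustment over 14761 genes. Each SE was obtained from the log2 fold change and its F statistic (size over root F). The biological coefficient of variation was 20.3%. Replicates differed by more than sampling noise (chi-square per degree of freedom 14.8 to 29.2), and each entered as its own sample. Whether the library preparation kept strand is not given in the sources used here. Ratios used raw counts of the same library. The fit was checked on simulated data. Promoter windows were matched by symbol.

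The genes and lists were chosen with earlier results of these data known. Named are the 3 genes, Klrb1c, Cd36, list genes that were called or that had the highest level per length, the most counted genes of marker lists, and the 5 genes of most similar profile. Genes beside them on the chromosome, and others named at the ends of ranges, were added after values were seen. Values of 2 list genes that this rule names are not reported here. Alternatives were DESeq2 1.42.0, upper-quartile factors, other filters, the replicate number or, chosen after seeing the data, the form of the library name as a block, and each library left out in turn.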

Additional observations from a re-analysis of the deposited data

How the results depend on the processing

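Under 12 alternatives the log2 fold change stayed between -2.63 and -2.37 for Samd3, between -2.49 and -2.31 for Dapk2 and between -2.81 and -2.63 for Phactr3, each move smaller than the spread between replicates. The differences relative to Klrb1c also moved by less than that spread under 8 alternatives, from -0.17 to 0.11 for Samd3, -0.06 to 0.20 for Dapk2 and -0.42 to -0.09 for Phactr3. Among these 8, the replicate block could not move the differences, because each replicate number occurs once in each fraction. The count of called genes was 880, and it was 560 (221 higher, 339 lower) with the replicate block. Leaving out 1 library gave 417 to 1160, with 417 without CD36- NK replicate 1, 418 without CD36+ NK replicate 2, 431 without CD36- NK replicate 3 and 451 without CD36+ NK replicate 3. Of the 52 family and pathway genes tested, 2 were called. Without a filter on low counts it was 1 of 59, where 756 of all 27171 genes were called. With 10 counts in every library it was 1 of 48 (716 of 13244), and with the replicate block 1 of 52 (560 of 14761). With a library left out it was 1 to 5 of 52 or 53 genes, the most being 5 of 53 without CD36- NK replicate 2 (1160 of 15276). The cause of these moves was not tested. With 1 library left out, 4 uncalled genes turned sign among the named genes that were refitted, which did not include every list gene. Stk17b ran from -0.078 (without CD36- NK replicate 2, and -0.014 without CD36+ NK replicate 3) to 0.307, Actb from -0.229 to 0.024 (without CD36+ NK replicate 2), Ppp1r3d from -0.213 (without CD36+ NK replicate 1) to 0.742, and Calm3 from -0.04 (without CD36+ NK replicate 1, and -0.027 without CD36- NK replicate 3) to 0.112. The labels do not say that a replicate number marks a shared animal or day. Deviations of same-numbered libraries from their group means correlated across genes at 0.310, 0.0515 and -0.0837 for replicates 1 to 3, and only replicate 1 correlated best with its own number, so the numbers were not taken as pairs. Phactr3 had the fewest counts of the 3 genes, 48 to 56 per CD36+ NK library.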
